A study of Mus musculus with 90 samples.

Results

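Hypothalamus libraries of intruder-exposed resident mice at 30 and at 120 min after the encounter are compared here: 10 of the 90 libraries of the series, 5 per time. They were chosen by their titles, which name the region, the time and the exposure; the 120 min animals are numbered 1, 2, 3, 4 and 6. All residents were C57BL/6J males that had shared their cage with a C57BL/6J female for 1 week to establish a territory and were parted from her 3 h before the test. Residents of the intruder groups faced an unfamiliar BALB/cJ male inside a wire mesh cage for 5 min, sat in a dark and quiet place, and were killed 30, 60 or 120 min after the exposure. Control residents met the same mesh cage holding a paper cup, and gave 3, 5 and 5 hypothalamus libraries at 30, 60 and 120 min. The mesh prevented contact, so the residents did not fight, and each animal was killed at a single time, so that times are compared between animals. Each library carries 1 animal identifier, although the series also describes its RNA samples as pooled, and the labels give no age.

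The hypothalamus joins sensory input to hormone release, body temperature, feeding, aggression and the stress response, and holds the neurons that make oxytocin, vasopressin, orexin and corticotropin-releasing hormone. When neurons fire strongly, calcium and cyclic AMP signals act on transcription factors already present, such as CREB and SRF, and switch on immediate-early genes within minutes. Their messengers are short-lived and some of their products are feedback inhibitors, so that the pulse is brief. A whole-tissue library also holds RNA of glia and of blood vessels.

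The libraries held 49633997 to 53533547 reads on genes at 30 min, with a mean of 51592472 ± 1611728 (SD, n = 5), and 43435113 to 50529477 at 120 min, with a mean of 46335035 ± 2685386 (SD, n = 5; exact permutation test, two-sided, p = 0.0159, adjusted p = 0.073 over 23 library measures). Levels are given as counts-per-million values (CPM), which express a gene's reads relative to its library after TMM scaling and are not divided by gene length. Markers of the labelled tissue were present: Trh, the precursor of thyrotropin-releasing hormone, stood between 120.1 and 160.4 CPM at 30 min and between 98.7 and 188 CPM at 120 min, and the sum over 11 hypothalamus markers ranged from 942 to 2197 CPM over the 10 libraries. Thalamus marker sums stood apart in 120 min replicates 3 and 6, at 445 and 336 CPM against 136 to 181 CPM in the other 8 libraries, so counts are also given without that pair. Among the controls, 30 min replicate 3 and 120 min replicate 6 also had high sums, 309 and 519.8 CPM against 126 to 162 CPM in the other 6 libraries of those times. Replicate 1 of the 120 min intruder group stood furthest from the other 9 intruder-exposed libraries on the second principal component (-37.5 against -9.5 to 16.9, with 17.9% of the variance). Its squared differences from the other 120 min libraries were 44 to 72.2 times sampling noise, against at most 40.7 times in any other pair of a group. That library had the lowest endothelial and mural marker sums and the highest Hspa5 and Lars2 of its group, and without it 347 genes were called between 30 and 120 min. Column names of the deposited table carry a word that the labels do not explain, ISO in the 28 columns at 30 min and CERV in the 30 columns at 60 min and the 32 columns at 120 min. The leading library index also differs between the intruder groups of 30 and 120 min. A change from 30 to 120 min therefore cannot be told apart from what that word or index stands for, and 60 and 120 min share the word but not the index. Between the 2 indexes used within the 30 min intruder group, edgeR called 0 of 17887 genes, and 313 had an unadjusted p under 0.05.

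Between 30 and 120 min, 171 genes rose and 170 fell in the intruder-exposed hypothalamus, out of 17676 tested with edgeR's quasi-likelihood test at an adjusted p under 0.05. These are 0.967% and 0.962% of the genes tested. The falls were larger, with a median log2 change of -0.58 against 0.24 for the rises, and 26 genes fell and 7 rose by at least 1 on the log2 scale. In 258 of the 341 genes (75.7%) the 5 libraries of 1 time did not overlap the 5 of the other, as was so for 4.33% of all genes tested. The split moved to 125 higher and 191 lower with upper-quartile scaling, to 35 and 120 without 120 min replicates 3 and 6, to 26 and 72 in a fit of the compared groups only and to 358 and 270 with DESeq2. Leaving out a single library gave between 162 and 475 genes: 162, 222, 193 and 195 without 30 min replicates 2, 3, 4 and 5, and 184 and 223 without 120 min replicates 3 and 6.

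Immediate-early genes had the smallest p among the genes that fell. Of 22 rapid transcription factor genes, 11 fell and 0 rose, with a list median of -0.45 on the log2 scale against 0.01 for all genes tested. Fos (ENSMUSG00000021250), a subunit of the AP-1 transcription factor, stood at 71.3, 47.6, 58.8, 43.6 and 40.2 CPM in 30 min replicates 1 to 5. At 120 min Fos stood at 18.4, 9.91, 18.9, 14.0 and 17.2 CPM in replicates 1, 2, 3, 4 and 6. Every 30 min library was above every 120 min library, and the log2 change was -1.74 ± 0.163 (SE; edgeR adjusted p = 2.36e-07). Junb (ENSMUSG00000052837), another AP-1 subunit, stood at 41.4, 30.1, 37.5, 29.6 and 26.8 CPM at 30 min. It stood at 14.1, 9.91, 11.1, 12.0 and 10.1 CPM at 120 min (-1.53 ± 0.123, log2, SE; edgeR adjusted p = 1.52e-08). Again the groups did not overlap. Nr4a1 (ENSMUSG00000023034), an orphan nuclear receptor, stood at 54.4, 32.6, 41.7, 34.2 and 34.6 CPM at 30 min and at 16.0, 12.2, 16.3, 16.3 and 12.6 CPM at 120 min (-1.43 ± 0.131, log2, SE; edgeR adjusted p = 2.10e-07). Egr1 (ENSMUSG00000038418), a zinc-finger factor widely used as a mark of active neurons, stood at 129, 89.0, 116, 94.2 and 93.7 CPM at 30 min and at 52.0, 30.4, 53.8, 38.4 and 52.0 CPM at 120 min (-1.20 ± 0.149, log2, SE; edgeR adjusted p = 3.89e-05). In all 4 genes 30 min replicate 1 held the highest value.

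The other 7 factors that fell were Egr2 at -1.60, Egr4 at -1.04, Nr4a3 at -0.90, Fosb at -0.88, Klf2 at -0.54, Klf4 at -0.53 and Npas4 at -0.46 on the log2 scale (edgeR adjusted p from 0.00293 to 0.0455). Egr2, a relative of Egr1, stood between 2.40 and 4.66 CPM at 30 min and between 0.409 and 1.55 CPM at 120 min, without overlap. Npas4, a factor induced by calcium in neurons, stood between 9.23 and 14.5 CPM and then between 7.97 and 10.3 CPM, so its groups overlapped, as did those of Egr4, Nr4a3, Klf2 and Klf4. Klf2 and Klf4 are known from vessel walls as well as from neurons. Of 22 alternatives, Klf2 lost its call in 13, Klf4 in 10 and Npas4 in 6.

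Of 20 rapid genes whose products are not transcription factors, 5 fell and 0 rose, with a list median of -0.10. Btg2 (ENSMUSG00000020423), an antiproliferative gene, stood at 30.3, 25.8, 29.1, 20.8 and 20.4 CPM at 30 min and at 10.5, 10.7, 11.0, 11.4 and 8.81 CPM at 120 min (-1.27 ± 0.101, log2, SE; edgeR adjusted p = 1.52e-08). Its 120 min libraries lay close together and below all 30 min libraries. Sik1, a salt-inducible kinase that restrains the coactivators of CREB, went from 45.2, 34.3, 37.1, 36.7 and 32.9 CPM to 22.9, 23.8, 25.5, 24.3 and 20.1 CPM, again without overlap (-0.67 ± 0.0867, log2, SE; edgeR adjusted p = 6.01e-05). Dusp1, a phosphatase that switches off MAP kinases, fell from between 17.6 and 22.4 CPM to between 12.4 and 16.7 CPM (-0.49 ± 0.0777, log2, SE; edgeR adjusted p = 0.000851). Ccn1, a secreted matrix protein, fell by 0.67 and Apold1, an endothelial early gene, by 0.75 on the log2 scale (edgeR adjusted p = 0.0103 and 0.00315), calls lost in 4 and 2 of 22 alternatives. Arc, which acts at synapses, had a log2 change of -0.48 and was not called (edgeR adjusted p = 0.06).

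At 60 min several of these genes were already lower. Between 30 and 60 min, 14 genes of 17676 were called (0.0792%), 8 higher (0.0453%) and 6 lower (0.0339%), and 5 of those lower were rapid genes. These were Fos at -1.17, Nr4a1 at -1.07, Btg2 at -1.06, Junb at -1.05 and Dusp1 at -0.45 on the log2 scale (edgeR adjusted p from 1.21e-06 to 0.00899). Fos stood at 25.9, 18.5, 26.3, 20.1 and 25.3 CPM at 60 min, below all 30 min libraries. Between 60 and 120 min Fos had a log2 change of -0.56 and Junb of -0.48, and neither was called (edgeR adjusted p = 0.153 and 0.084). Nr4a3, an orphan receptor related to Nr4a1, had another course, between 13.5 and 30.9 CPM at 30 min, between 16.4 and 20.7 CPM at 60 min and between 8.94 and 14.3 CPM at 120 min. It fell from 60 to 120 min (-0.74 ± 0.162, log2, SE; edgeR adjusted p = 0.0292) and was the 1 member of the 2 rapid lists that edgeR called in that interval. Of the 22 factors DESeq2 called 5 and limma voom 2 there, and of the 20 other rapid genes both called 0. The list median of the 22 factors was -0.20 from 30 to 60 min and -0.38 from 60 to 120 min. Of them, 10 and then 14 had an unadjusted edgeR p under 0.05, as had 1546 and 2156 of all 17676 genes. The 20 other rapid genes had medians of -0.10 and -0.11, with 10 and then 5 at that p. The 60 vs 30 min count was 9 without 30 min replicate 1, and 9 and 8 without 60 min replicates 2 and 3.

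Rapid genes also fell in the cup-exposed controls. Of 17676 genes, 31 were called between 30 and 120 min in the controls (0.175%), 17 higher (0.0962%) and 14 lower (0.0792%), with 4 of the 22 rapid factors and 3 of the 20 other rapid genes among those lower. Fos stood at 35.5, 36.5 and 36.3 CPM in the 3 control libraries at 30 min and at 10.7, 8.98, 9.04, 13.2 and 12.4 CPM at 120 min (-1.74 ± 0.182, log2, SE; edgeR adjusted p = 6.08e-06). The log2 change in intruder-exposed animals minus that in controls was 0.00 ± 0.235 for Fos and -0.47 ± 0.154 for Btg2 (SE; edgeR adjusted p = 0.998 and 0.502). Over all 17676 genes this difference was called in 0 with edgeR or limma voom, 1342 having an unadjusted edgeR p under 0.05, and in 12 with DESeq2, with no rapid gene among them. Of the 31 control genes, 19 (61.3%) were called in the same direction in the intruder comparison, which is 5.57% of its 341. The control count was 14, 20 and 10 without control 30 min replicates 2, 3 and 5, and 19 and 17 without control 120 min replicates 2 and 4.

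**Figure D1:**
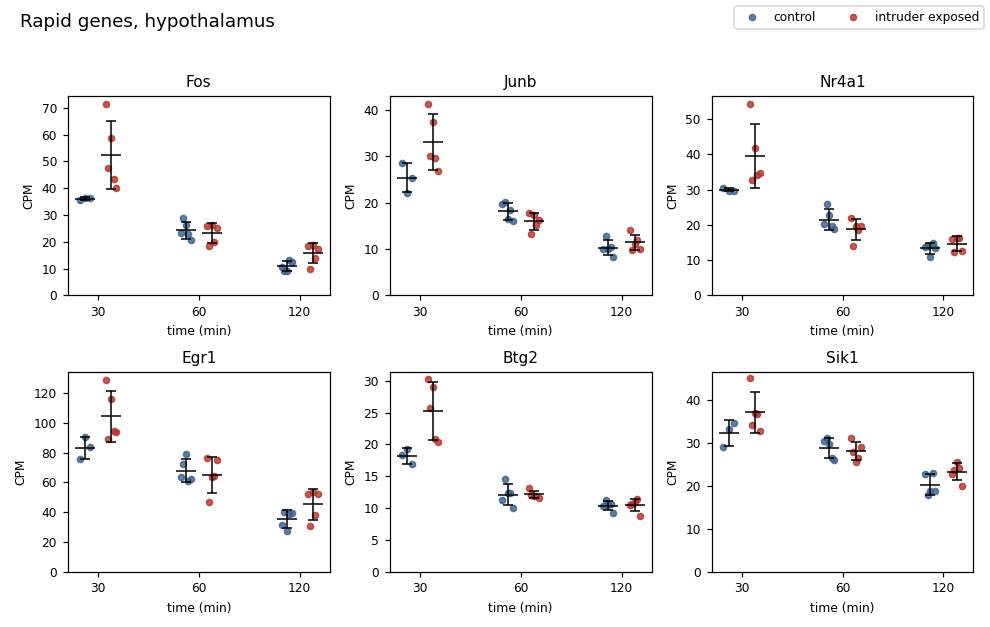
CPM of Fos, Junb, Nr4a1, Egr1, Btg2 and Sik1 (vertical axes, from 0) in every hypothalamus library at 30, 60 and 120 min (equal steps), controls in blue and intruder-exposed animals in red; points are libraries and bars the mean and SD. In intruder-exposed animals Fos stood between 40.2 and 71.3 CPM at 30 min and between 9.91 and 18.9 CPM at 120 min, and the control points are also lower at 120 min.

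Promoters of the rapid genes are shown because 11 of the 22 factors and 5 of the 20 other rapid genes fell. The family is known for a shared input, the cyclic AMP response element (CRE), which CREB binds. The 250 bases before each gene's start (RefSeq, GRCm38.p6) were searched on both strands for the full element TGACGTCA and for its core TGACG, which every full element contains. The core was found in 17.8% and the full element in 1.55% of all 32851 windows of that length. These shares are per window, whereas a gene was counted if any of its windows matched. Some genes had several windows, such as Egr2 with 5, Csrnp1 with 4 and Maff with 3. Of the rapid factors that fell, 10 had a window and 10 held the core, against 4 of 8 that were not called. Of the other rapid genes that fell, 4 of 4 held the core and 2, Btg2 and Dusp1, the full element, against 7 and 3 of 13 that were not called. Egr1 and Sik1, which fell, had no window. The core was not confined to genes that fell: it was found in 4 of 8 endoplasmic reticulum chaperones that rose. Of vessel markers that fell, 1 of 6 endothelial and 0 of 2 mural ones held it. Capitals mark the core in the first 3 windows and the full element in the last 2; a match of letters is a description and not a site.
Fos, chr12:85473640-85473889, plus strand: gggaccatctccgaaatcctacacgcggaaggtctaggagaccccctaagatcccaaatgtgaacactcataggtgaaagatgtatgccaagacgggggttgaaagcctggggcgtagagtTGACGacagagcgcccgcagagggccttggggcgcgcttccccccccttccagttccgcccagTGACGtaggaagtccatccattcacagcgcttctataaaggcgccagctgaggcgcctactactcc
Junb, chr8:84978749-84978998, minus strand: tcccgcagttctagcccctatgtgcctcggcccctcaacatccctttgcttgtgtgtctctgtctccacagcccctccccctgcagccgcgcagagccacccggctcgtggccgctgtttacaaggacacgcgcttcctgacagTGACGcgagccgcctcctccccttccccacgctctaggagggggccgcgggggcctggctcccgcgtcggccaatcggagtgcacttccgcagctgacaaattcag
Nr4a1, chr15:101266596-101266845, plus strand: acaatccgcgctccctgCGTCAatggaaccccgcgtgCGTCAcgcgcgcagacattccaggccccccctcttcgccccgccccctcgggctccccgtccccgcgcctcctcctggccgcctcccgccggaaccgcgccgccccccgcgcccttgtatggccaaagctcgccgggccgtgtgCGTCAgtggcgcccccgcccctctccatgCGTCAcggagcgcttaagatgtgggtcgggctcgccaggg
Btg2, chr1:134079156-134079405, minus strand: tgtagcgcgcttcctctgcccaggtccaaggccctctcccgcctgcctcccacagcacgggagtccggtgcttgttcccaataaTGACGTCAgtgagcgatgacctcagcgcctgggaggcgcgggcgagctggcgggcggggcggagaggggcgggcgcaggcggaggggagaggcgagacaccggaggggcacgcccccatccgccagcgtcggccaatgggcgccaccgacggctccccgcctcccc
Dusp1, chr17:26508473-26508722, minus strand: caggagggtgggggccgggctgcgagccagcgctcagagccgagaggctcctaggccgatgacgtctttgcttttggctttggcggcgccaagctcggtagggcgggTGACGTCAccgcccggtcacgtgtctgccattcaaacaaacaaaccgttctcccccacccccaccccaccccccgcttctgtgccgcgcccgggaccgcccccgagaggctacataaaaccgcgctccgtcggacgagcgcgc

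A host transcript of microRNAs known to respond to CREB fell with them. 1700016P03Rik stood at 10.7, 8.29, 11.5, 6.74 and 6.72 CPM at 30 min and at 5.32, 3.19, 4.63, 3.63 and 3.18 CPM at 120 min, without overlap (-1.14 ± 0.151, log2, SE; edgeR adjusted p = 9.69e-05). It was also called between 30 and 60 min, at -0.92, and in the controls, at -1.12 (edgeR adjusted p = 0.00518 and 0.00166). In GRCm38 the host lies at chr11:75172560-75177633 on the plus strand and encloses Mir212 at chr11:75173388-75173478 and Mir132 at chr11:75173682-75173747. Mir132 and Mir212 were themselves called lower, at -1.33 ± 0.287 and -1.48 ± 0.319 (log2, SE; edgeR adjusted p = 0.0123 and 0.0126), from at most 0.441 CPM. Mir132 lost its call in 1 of 19 alternatives and Mir212 in 2 of 20. Reads cannot be assigned between these overlapping features, and mature microRNAs were not measured. The 3 genes were chosen after their values were seen. The mature products, from RefSeq, share the seed in capitals (bases 2 to 8).
mmu-miR-132-3p: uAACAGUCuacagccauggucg
mmu-miR-212-3p: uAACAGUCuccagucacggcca

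Markers of blood vessels formed another group of genes that fell. All 8 endothelial markers fell, with a list median of -0.62 on the log2 scale, and 4 of 7 markers of mural cells (pericytes and smooth muscle) fell, with a list median of -0.77. Cd34 (ENSMUSG00000016494), a sialomucin of the endothelial surface, stood at 15.8, 15.3, 17.1, 16.3 and 16.3 CPM at 30 min. At 120 min it stood at 9.82, 9.30, 11.0, 10.8 and 11.4 CPM, 0.648 times the earlier level (-0.63 ± 0.0693, log2, SE; edgeR adjusted p = 5.95e-06). No library overlapped, and each group was tight. Tek, the angiopoietin receptor, went from between 10.5 and 12.1 CPM to between 5.78 and 8.20 CPM (-0.70 ± 0.1, log2, SE; edgeR adjusted p = 0.000219). Cldn5, the tight-junction claudin of the blood-brain barrier, went from between 20.2 and 23.8 CPM to between 12.2 and 17.4 CPM (-0.56 ± 0.11, log2, SE; edgeR adjusted p = 0.00679). The other 5 had log2 changes of -0.64 (Cdh5, the cadherin of endothelial junctions), -0.62 (Pecam1, an adhesion molecule), -0.61 (Flt1, a VEGF receptor), -0.57 (Slco1a4, an organic anion transporter) and -0.47 (Ly6c1). Of the 8, the times overlapped for Flt1 alone. Flt1 lost its call in 7 of 22 alternatives and Cdh5 in 3, and the other 6 in at most 2.

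Rgs5 (ENSMUSG00000026678), a regulator of G-protein signalling in pericytes, stood at 85.0, 83.7, 84.3, 87.0 and 85.5 CPM at 30 min. It stood at 40.2, 46.0, 56.9, 46.5 and 59.3 CPM at 120 min (-0.77 ± 0.0966, log2, SE; edgeR adjusted p = 3.89e-05). The 30 min libraries were nearly equal, and the 120 min libraries were all lower and more spread. The contractile genes of smooth muscle had larger changes, Acta2, smooth muscle actin, at -1.34 ± 0.266, Tagln, transgelin, at -1.27 ± 0.303 and Myh11, a smooth muscle myosin, at -1.24 ± 0.272 (log2, SE; edgeR adjusted p = 0.00667, 0.0239 and 0.0138). Of 22 alternatives, Tagln lost its call in 9, Myh11 in 4 and Acta2 in 2. Acta2 stood between 8.01 and 10.1 CPM at 30 min and between 3.22 and 4.02 CPM at 120 min. The pericyte markers Pdgfrb, at -0.34, Abcc9, at -0.22, and Kcnj8, at 0.07, were not called (edgeR adjusted p = 0.0793, 0.376 and 0.812). Outside the lists, Pln, the calcium pump regulator phospholamban, went from between 1.29 and 1.93 CPM to between 0.274 and 0.573 CPM (-1.76 ± 0.304, log2, SE; edgeR adjusted p = 0.00221). Slc40a1, the iron exporter ferroportin, went from between 8.59 and 10.1 CPM to between 5.30 and 6.65 CPM (-0.64 ± 0.0805, log2, SE; edgeR adjusted p = 3.89e-05).

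Summed over its list, endothelial marker RNA stood at 206, 214, 200.1, 216 and 201 CPM at 30 min and at 112, 117, 169, 132 and 161 CPM at 120 min (exact permutation test, two-sided, p = 0.00794, the smallest this design can give; adjusted p = 0.0456). Mural sums went from between 136 and 142 CPM to between 68.7 and 95.7 CPM, with the same p-values by the same exact test. As a mean of log2(CPM + 1) over each list, the differences of -0.58 and -0.635 missed the threshold of 0.05 after adjustment. Over 23 measures, a p at the floor of 0.00794 passes after adjustment only when other measures reach that floor too. Passing or missing is therefore not set by the vessel values alone. In both sums all 5 libraries of 120 min were below all 5 of 30 min. In bulk tissue, fewer cells of a type and less RNA per cell cannot be told apart. Other measures moved over the same libraries: the sum of 6 astrocyte markers was between 2339 and 2458 CPM at 30 min and between 2535 and 2885 CPM at 120 min, and the number of genes with a read was between 21502 and 21653 and between 21237 and 21447 (exact permutation test, adjusted p = 0.0456 for each). Microglia sums were between 162 and 183 CPM and between 153 and 186 CPM. The part of these measures, and of depth, in the vessel result was not tested.

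Vessel markers were near their 30 min levels at 60 min and lower at 120 min. At 60 min the endothelial sum was between 179.8 and 235 CPM and the mural sum between 121 and 155 CPM. Between 30 and 60 min 0 of the 8 and 0 of the 7 markers were called by edgeR, limma voom or DESeq2, 1 in each list having an unadjusted edgeR p under 0.05. Between 60 and 120 min, 74 genes fell and 4 rose (0.419% and 0.0226% of 17676), and 6 of 8 endothelial and 2 of 7 mural markers fell. Cd34 changed by -0.62 ± 0.0694 and Rgs5 by -0.76 ± 0.0966 over that interval (log2, SE; edgeR adjusted p = 3.55e-05 and 0.000211). Cav1, a coat protein of caveolae, stood between 13.8 and 15.9 CPM at 60 min and between 9.09 and 10.8 CPM at 120 min (-0.58 ± 0.0755, log2, SE; edgeR adjusted p = 0.000211). Icam1, to which leukocytes attach, was the 1 gene called of 5 tested in the inflammatory list, at -0.98 (edgeR adjusted p = 0.0122). Meningeal fibroblast marker sums were between 45.1 and 233 CPM at 60 min and between 49.1 and 60.2 CPM at 120 min, and their part was not tested. The leading index also differs between the intruder-exposed libraries of 60 and 120 min, so index and time cannot be told apart in this interval. The 120 vs 60 min count was 39 and 46 without 120 min replicates 1 and 2, and 41, 31 and 124 without 60 min replicates 2, 4 and 5.

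Controls at 120 min held more vessel marker RNA than the intruder-exposed animals of that time. The control endothelial sum was between 192 and 219 CPM at 30 min and between 181 and 205 CPM at 120 min, and the control mural sum between 126 and 153 CPM and between 123 and 146 CPM, so that no control library at 120 min overlapped an intruder-exposed one; this contrast at a single time is given as values and was not tested. From 30 to 120 min in the controls 0 of the 8 and 0 of the 7 markers were called by edgeR, limma voom or DESeq2, with 1 and 0 at an unadjusted edgeR p under 0.05. Control replicates 1, 2 and 3 at 120 min carry the same leading index as the intruder-exposed libraries of that time. Cd34 changed by -0.05 ± 0.0789 in controls, and the intruder change minus the control change was -0.58 ± 0.105 (log2, SE; edgeR adjusted p = 0.0899). For Rgs5 the control change was 0.05 ± 0.11 and the difference -0.83 ± 0.148 (edgeR adjusted p = 0.0899). The difference of changes thus missed the edgeR threshold for both genes in the fit of all hypothalamus groups; in the fit of the compared groups only it passed for Cd34, at -0.58 on the log2 scale (edgeR adjusted p = 0.0326).

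DESeq2 called 9 genes with a lower and 3 with a higher change in intruder-exposed animals than in controls. Those lower were Rgs5, Cd34, Abcb1a (the efflux pump of the barrier), Abcg2, Erg, Olfr558, Srsf5, Myl9 and Ly6c1, with DESeq2 adjusted p from 0.000685 to 0.0342; those higher were Lemd2, P4ha1 and Kctd20. Without 120 min replicates 3 and 6, the pair with high thalamus markers, edgeR called 11, all lower: Abcb1a, Rgs5, Erg, Adgrl4, Cd34, Slco1a4, Jcad, Prom1, Nostrin, Flt1 and Adgrf5 (edgeR adjusted p from 0.000547 to 0.0494). That setting kept the control libraries with high thalamus sums. When 30 min replicate 3 and 120 min replicate 6 of the controls were left out as well, edgeR called 10, all lower: Abcb1a, Slco1a4, Rgs5, Prom1, Erg, Adgrl4, Jcad, Ly6c1, Tmem204 and Sgms1 (edgeR adjusted p from 0.000697 to 0.0489), and Cd34 was not among them. The controls at 30 min then held 2 libraries. Without intruder 120 min replicate 3 alone Rgs5 and Abcb1a were called, and without replicate 6 alone these and Cd34. From 30 to 120 min in the intruder-exposed animals, Abcb1a fell by 0.74, Kdr, a VEGF receptor, by 0.86 and Erg, an endothelial ETS factor, by 0.71 on the log2 scale (edgeR adjusted p = 0.000851, 0.00886 and 0.00275). These genes and both joint removals were chosen after seeing the data.

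**Figure D2:**
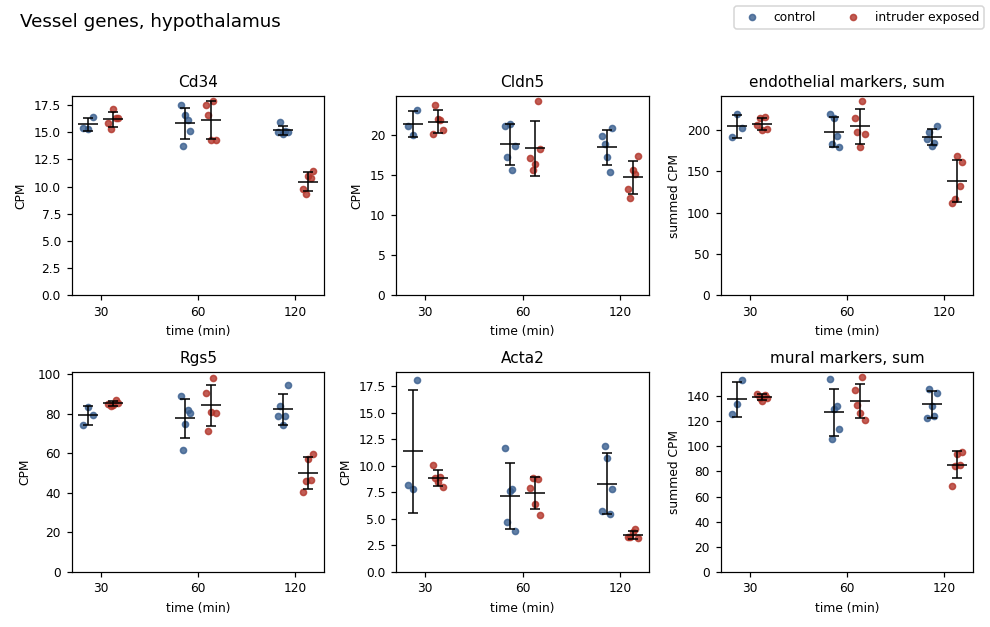
CPM of Cd34, Cldn5, Rgs5 and Acta2 and summed CPM of the endothelial and mural markers (vertical axes, from 0) in every hypothalamus library at 30, 60 and 120 min (equal steps), controls in blue and intruder-exposed animals in red; points are libraries and bars the mean and SD. At 120 min the endothelial sum is between 112 and 169 CPM in intruder-exposed animals and between 181 and 205 CPM in controls.

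The genes that rose with the smallest p did so by small steps. They were Elavl1, Chka, Spsb1, Sfpq, Paip2b, Acsl3, Lifr and Lrrc1, and in all 8 the times did not overlap. Elavl1 (ENSMUSG00000040028), whose product HuR binds AU-rich elements of short-lived messengers, stood at 94.3, 95.0, 96.1, 96.1 and 90.0 CPM at 30 min. It stood at 113, 108, 113, 106 and 107 CPM at 120 min, 1.16 times the earlier level (0.22 ± 0.0291, log2, SE; edgeR adjusted p = 0.000112). Sfpq, a splicing factor of paraspeckles, went from between 151 and 163 CPM to between 184 and 195 CPM (0.27 ± 0.0409, log2, SE; edgeR adjusted p = 0.00039), and was already called at 60 min (between 179 and 189 CPM; edgeR adjusted p = 0.00522). Spsb1, an adaptor of a ubiquitin ligase, went from 13.1, 11.4, 10.9, 13.3 and 13.6 CPM to 20.7, 16.4, 20.5, 19.7 and 18.0 CPM (0.61 ± 0.0885, log2, SE; edgeR adjusted p = 0.000238). This was the largest of the 8 log2 changes, and Spsb1 was also called in the controls, at 0.54 (edgeR adjusted p = 0.0206). Lifr, the receptor of leukemia inhibitory factor, changed by 0.51 ± 0.0895 and in controls by 0.53 ± 0.105 (log2, SE; edgeR adjusted p = 0.00249 and 0.0227). Chka, a choline kinase, rose by 0.29, Paip2b, an inhibitor of translation, by 0.25, Acsl3, a fatty acid ligase, by 0.27 and Lrrc1 by 0.35 on the log2 scale.

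Chaperones of the endoplasmic reticulum fold and retain newly made secretory proteins, and 8 of 14 rose while 0 fell, with all 14 log2 changes above 0 and a list median of 0.25. DESeq2 called 13 and limma voom 6, and in an edgeR fit of the compared groups only 0 were called. Hspa5 (ENSMUSG00000026864), the chaperone BiP, stood at 487, 468, 525, 499 and 527 CPM at 30 min. It stood at 772, 526, 648, 581 and 591 CPM at 120 min (0.32 ± 0.0764, log2, SE; edgeR adjusted p = 0.0275). The highest 120 min value was in replicate 1, the library that stood furthest apart, and replicate 2 lay within the 30 min range. Sdf2l1, a partner of BiP, changed by 0.58 ± 0.135, Pdia4, a disulfide isomerase, by 0.41 ± 0.0898 and Dnajb11, a cochaperone of BiP, by 0.31 ± 0.0637 (log2, SE; edgeR adjusted p = 0.0208, 0.0139 and 0.0092). Pdia4 stood between 55.7 and 63.8 CPM at 30 min and between 65.7 and 97.2 CPM at 120 min, without overlap. The others were Herpud1 at 0.26, Dnajc3 at 0.23, Pdia3 at 0.22 and Hsp90b1 at 0.20. Of 22 alternatives, Pdia3 and Hsp90b1 each lost their call in 17, Hspa5 and Herpud1 each in 10, Sdf2l1 in 9, Dnajc3 in 8 and Pdia4 and Dnajb11 each in 5. In the controls 0 of 14 were called by edgeR, limma voom or DESeq2, 0 had an unadjusted edgeR p under 0.05, and the list median was -0.02. For the difference of changes the 3 tools called 0 of 14, and 10 had an unadjusted edgeR p under 0.05, against 1342 of all 17676 genes.

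Of 16 cytosolic heat shock genes, 3 rose and 0 fell, with all 16 log2 changes above 0 and a list median of 0.27. Signs were also alike in lists without a call. Above 0 were 72 of 75 nuclear oxidative phosphorylation genes (median 0.08) and 73 of 84 ribosomal protein genes (0.05), against 9152 of all 17676 genes. DESeq2 called 10 and limma voom 3, and in an edgeR fit of the compared groups only 0 were called. Hsph1, a nucleotide exchange factor of Hsp70, stood at 525, 415, 488, 438 and 441 CPM at 30 min and at 753, 467, 699.8, 561 and 586 CPM at 120 min (0.41 ± 0.0923, log2, SE; edgeR adjusted p = 0.0165). Replicates 1 and 3 were the highest at 120 min, and replicate 2 lay within the 30 min range. Hsp90aa1, the inducible Hsp90, changed by 0.30 ± 0.0708 and Chordc1, an Hsp90 cochaperone, by 0.43 ± 0.0832 (log2, SE; edgeR adjusted p = 0.0228 and 0.00571). Of 22 alternatives, Hsp90aa1 lost its call in 11, Hsph1 in 10 and Chordc1 in 4. Hspa1b, an inducible Hsp70, had a log2 change of 0.90 ± 0.392 (SE) and was not called (edgeR adjusted p = 0.265). In the controls 0 were called by edgeR, limma voom or DESeq2, 2 had an unadjusted edgeR p under 0.05, and the list median was -0.11. For the difference of changes the 3 tools called 0 of 16, and 15 had an unadjusted edgeR p under 0.05, against 1342 of all 17676 genes. All 16 log2 changes were below 0 in the controls, down to -0.82, with 3 control libraries at 30 min. The difference of changes therefore holds a control part as well. All 75 nuclear oxidative phosphorylation genes also had a difference above 0, with 12 at that unadjusted p.

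Both chaperone counts depended on single libraries. Without 120 min replicates 1, 2 and 3 in turn the endoplasmic reticulum count was 3, 13 and 2, and without 30 min replicates 1, 2, 4 and 5 in turn it was 3, 1, 3 and 5. Without 120 min replicates 2, 3 and 4 in turn the heat shock count was 11, 1 and 6, and without 30 min replicates 1, 2 and 5 in turn it was 5, 1 and 1. With 120 min replicates 3 and 6 left out together edgeR called 0 genes of either list. Thalamus marker sums were highest in replicates 3 and 6 and the hypothalamus marker sum in replicate 1 of that group, and their part in the chaperone result was not tested.

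Chaperone promoters are shown for the element through which the unfolded protein response is known to act, the endoplasmic reticulum stress element, CCAAT and CCACG with any 9 bases between them, searched on both strands of the 250 bases before each start (RefSeq, GRCm38.p6). It was found in 0.113% of all 32851 windows, in 3 of the 8 genes that rose, and in 3 of the 4 others with a window, Calr, Creld2 and Pdia6. Capitals mark it in the genes that rose; Hsp90b1 holds 2 matches.
Hspa5, chr2:34771840-34772089, plus strand: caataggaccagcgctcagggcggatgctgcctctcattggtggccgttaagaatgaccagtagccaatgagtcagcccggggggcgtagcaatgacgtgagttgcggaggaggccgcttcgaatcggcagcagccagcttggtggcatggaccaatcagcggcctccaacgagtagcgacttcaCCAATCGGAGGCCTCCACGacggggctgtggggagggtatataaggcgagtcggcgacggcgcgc
Hsp90b1, chr10:86705445-86705694, minus strand: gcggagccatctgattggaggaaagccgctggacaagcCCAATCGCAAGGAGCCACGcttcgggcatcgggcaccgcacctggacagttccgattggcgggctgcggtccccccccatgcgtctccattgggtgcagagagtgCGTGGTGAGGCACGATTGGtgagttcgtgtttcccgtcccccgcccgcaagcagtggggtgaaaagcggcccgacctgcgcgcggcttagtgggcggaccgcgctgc
Dnajc3, chr14:118937682-118937931, plus strand: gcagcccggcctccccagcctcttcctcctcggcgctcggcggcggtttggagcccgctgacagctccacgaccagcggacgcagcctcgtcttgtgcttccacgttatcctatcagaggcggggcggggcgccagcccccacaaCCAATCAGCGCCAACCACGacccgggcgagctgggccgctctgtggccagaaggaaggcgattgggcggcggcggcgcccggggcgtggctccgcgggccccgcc

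**Figure D3:**
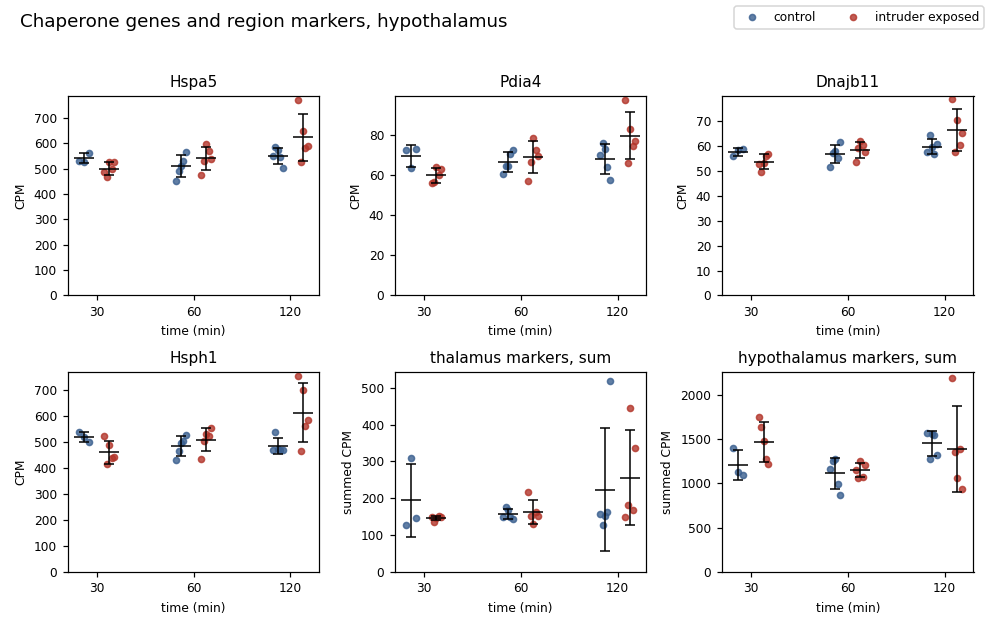
CPM of Hspa5, Pdia4, Dnajb11 and Hsph1 and summed CPM of the thalamus and hypothalamus markers (vertical axes, from 0) in every hypothalamus library at 30, 60 and 120 min (equal steps), controls in blue and intruder-exposed animals in red; points are libraries and bars the mean and SD. At 120 min the intruder-exposed libraries spread widely, Hspa5 from 526 to 772 CPM and the thalamus sum from 149 to 445 CPM, while the control thalamus sum ranges from 126 to 519.8 CPM at that time.

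Some of the largest fitted rises were not called under other settings. En1, a homeobox gene of the midbrain, had a log2 change of 4.84 ± 1.04 (SE; edgeR adjusted p = 0.0125). It stood at 10.7 CPM in 120 min replicate 6 and at 0.344 CPM or less in the other 9 libraries, and its call was lost in 7 of 19 alternatives, leaving out that replicate among them. Gm23935, a gene model without a descriptive name, and Lars2, the mitochondrial leucyl-tRNA synthetase, rose by 1.04 and 0.84 on the log2 scale (edgeR adjusted p = 0.0332 and 0.0482). Lars2 stood at 188, 163, 153, 151 and 187 CPM at 30 min and at 487, 259, 276, 193 and 291 CPM at 120 min, with replicate 1 the highest and no overlap between the times. Of 22 alternatives, Gm23935 lost its call in 12 and Lars2 in 17, leaving out 120 min replicate 1 among them for both. Cdkn1a, a cell-cycle inhibitor induced by stress, was the 1 gene called of 17 delayed activity genes (0.86 ± 0.202, log2, SE; edgeR adjusted p = 0.0226). It stood at 15.4, 9.25, 10.7, 9.74 and 12.6 CPM at 30 min and at 22.2, 13.1, 22.5, 24.9 and 22.3 CPM at 120 min, where replicate 2 lay within the 30 min range, and its call was lost in 9 of 22 alternatives.

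Genes induced by glucocorticoids, the steroid hormones of stress, had a list median of 0.35, with 16 of 18 log2 changes above 0, and 2 rose. Tsc22d3, which encodes the leucine zipper protein GILZ, stood at 162, 113, 118, 130.1 and 136 CPM at 30 min and at 249, 149.8, 225, 186 and 186 CPM at 120 min (0.60 ± 0.122, log2, SE; edgeR adjusted p = 0.00863). All 120 min libraries but replicate 2 were above all 30 min libraries, and the call was lost in 3 of 22 alternatives. Klf9, a zinc-finger factor, rose by 0.34 (edgeR adjusted p = 0.0262) and lost its call in 12 of 22 alternatives. Sgk1, a kinase, and Fkbp5, a cochaperone of the steroid receptor, had log2 changes of 0.63 ± 0.252 and 0.43 ± 0.163 (SE) and were not called (edgeR adjusted p = 0.226 and 0.192). In the controls the list median was 0.37, and 1 gene was called, Hif3a at 1.57 (edgeR adjusted p = 0.0181). DESeq2 called 4 genes of the list in the intruder-exposed animals and 5 in the controls, and limma voom 3 and 1. Of 18 clock genes 1 was called, Arntl, which encodes BMAL, at 0.19 ± 0.0504 (log2, SE; edgeR adjusted p = 0.0471), a call lost in 16 of 22 alternatives.

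No change was called in the peptide systems of the hypothalamus. Of 26 neuropeptide genes edgeR, DESeq2 and limma voom called 0, and 0 had an unadjusted edgeR p under 0.05. Oxt, the precursor of oxytocin, stood between 187 and 320.4 CPM at 30 min and between 158 and 399.6 CPM at 120 min, a log2 change of -0.01 ± 0.251 (SE). Avp, the precursor of vasopressin, had a change of -0.01 ± 0.276 and Crh, the releasing hormone of the stress axis, of -0.09 ± 0.462 (log2, SE). In these genes a change as large as the SE could not be told from no change. The smallest detectable change was not worked out. Of 30 neuropeptide and hormone receptor genes the 3 tools called 0, and 1 had an unadjusted edgeR p under 0.05. The 3 tools also called 0 of 18 cholesterol synthesis genes (2 at that unadjusted p), 0 of 75 nuclear oxidative phosphorylation genes (2), 0 of 12 mitochondrially encoded genes (1), 0 of 84 ribosomal protein genes (0) and 0 of 2 cold-inducible RNA-binding genes (0). Of 14 inflammatory genes 5 were tested, of which edgeR and limma voom called 0 and DESeq2 1, with 2 at an unadjusted edgeR p under 0.05. Among the marker lists other than those of vessels, 1 gene was called, Gjb6, a connexin of astrocytes, at 0.30 ± 0.0762 (log2, SE; edgeR adjusted p = 0.0358), a call lost in 14 of 22 alternatives.

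**Figure D4:**
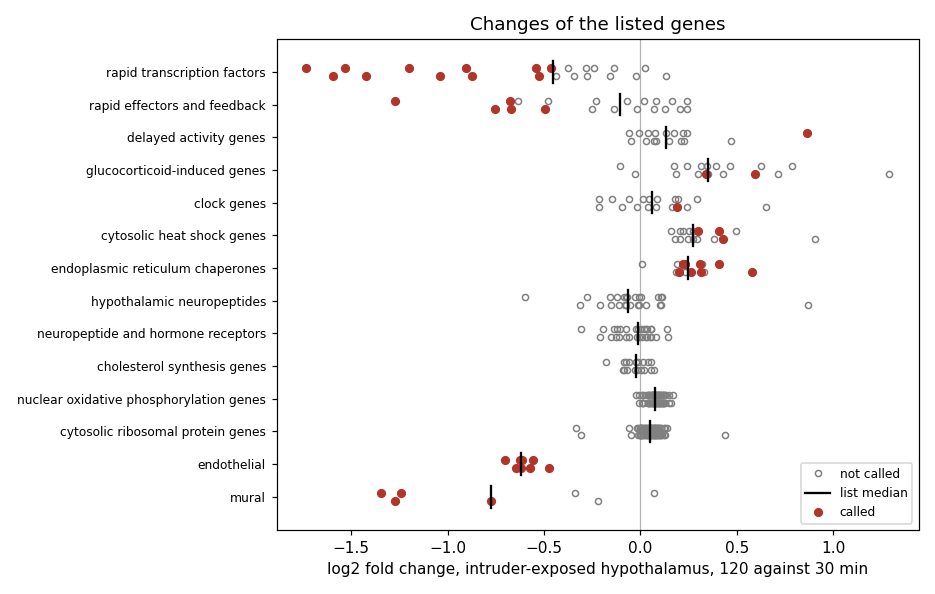
Log2 fold change from 30 to 120 min in the intruder-exposed hypothalamus (horizontal axis) of each tested member of 14 lists (a line for each list); red points passed the edgeR test and black bars are list medians. The medians lie at -0.45 for the rapid transcription factors, -0.62 for the endothelial markers and 0.25 for the endoplasmic reticulum chaperones.

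The other intervals added a few named genes, those with the smallest p in each direction. From 30 to 60 min Lrrc58, Sfpq and Errfi1, an inhibitor of the EGF receptor, rose, and Errfi1 lost its call in 6 of 18 alternatives. Lrrc58 stood between 129 and 135 CPM at 30 min, between 145 and 161 CPM at 60 min (0.22 ± 0.0331, log2, SE; edgeR adjusted p = 0.0022) and between 137 and 146 CPM at 120 min. From 60 to 120 min Psg23 and Kank1 rose by 0.56 and 0.21 on the log2 scale (edgeR adjusted p = 0.019 and 0.0476). Kank1 lost its call in 15 of 19 alternatives and Psg23 in 6. In the controls Eva1a, Rbm25 and Ada, adenosine deaminase, rose from 30 to 120 min by 0.61, 0.55 and 1.17 (edgeR adjusted p = 0.00349, 0.00463 and 0.00753). In the intruder-exposed animals their log2 changes were 0.32, 0.37 and 0.46, of which the first 2 were called (edgeR adjusted p = 0.0445, 0.0106 and 0.178).

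Amygdala libraries of intruder-exposed animals at the same times were fitted for comparison, with 1474 genes higher and 1321 lower of 17310 tested (8.52% and 7.63%). Of the 171 genes that rose in hypothalamus, 169 were tested there and 107 rose, and of the 170 that fell, 122 fell. The identifiers tie both regions to the same animals, so these are not separate animals. In amygdala too, the unexplained word of the column names and the leading index differ between 30 and 120 min. Neither can be told apart from time there. In amygdala Cd34 changed by -0.52, Rgs5 by -0.70, Fos by -1.49 and Hspa5 by 0.48 on the log2 scale (edgeR adjusted p = 4.33e-05, 9.16e-06, 1.29e-05 and 0.00295). Of the lists, 7 of 8 endothelial and 1 of 7 mural markers fell there, and 9 of 14 endoplasmic reticulum chaperones rose. Acta2 had a change of -0.18 ± 0.356 in amygdala, and the hypothalamus change minus the amygdala change was -1.17 ± 0.523 (log2, SE; edgeR adjusted p = 0.34). Over 17310 genes that difference between the regions was called in 0 with edgeR or limma voom, 2419 having an unadjusted edgeR p under 0.05, and in 35 with DESeq2. The Acta2 difference and these counts came from fits that treated both regions of an animal as independent. With a block for each animal edgeR called 0, and 2966 had an unadjusted p under 0.05.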

How the data were processed

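Brain RNA was sequenced single-end from stranded mRNA libraries, per the labels' protocols. The deposited table holds whole read counts per gene for 90 libraries, which the authors made with tools named, per the submitters' processing notes, as CASAVA 1.8.2, TopHat2 2.0.8, HTSeq 0.6.1, edgeR 3.2.4 and R 3.0.0 on build NCBIM37; the notes used here give no settings. The 5 rows for unassigned reads were left out. Of 37991 gene identifiers, 32919 had a symbol.

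The 28 hypothalamus libraries were fitted together in 6 groups of region, time and exposure, with TMM scaling, edgeR's filter on low counts, its quasi-likelihood test (edgeR 4.0.16, R 4.3.3) and Benjamini-Hochberg adjustment, with 0.05 as the threshold. The same fit gave the 60 min, control and intruder minus control comparisons. A second, separate fit held only the intruder libraries of hypothalamus and amygdala at 30 and 120 min, and gave the amygdala and region comparisons. The coefficient of variation between animals was 11%. Marker sums were compared by an exact permutation test over all groupings of 5 and 5. Genes named are the 8 called in each direction with the smallest p and the 4 with the largest change at a mean of at least 1 CPM, up to 3 in each direction in other comparisons, and members of the lists. The comparison, members and lists were chosen with earlier results of these data known. Alternatives used DESeq2 1.42.0, limma 3.58.1 (voom), other scalings, filters and groups, a replicate block, and fits without single libraries. Replicate numbers did not pair the 30 and 120 min animals: the correlations of their deviations were 0.12, 0.1, -0.17 and -0.35. Promoter and microRNA sequences are from RefSeq (GRCm38.p6), another build than that of the counts; coordinates were not converted. With 43435113 to 53533547 gene reads per library, counting error matters most for genes of low CPM. The edgeR step was tested on simulated counts.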

Additional observations from a re-analysis of the deposited data

Results flagged for a closer look

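Of 160 groups of 5 libraries tested with Dixon's test for a value far from the others, 7 stood out, and chance gives about 1 in 20. In the 120 min intruder group, En1 stood at 10.7 CPM in replicate 6 against 0.0858 to 0.344 CPM in the others, and Cdkn1a at 13.1 CPM in replicate 2 against 22.2 to 24.9 CPM. Arntl stood at 26.1 CPM in replicate 2 of that group against 29.7 to 31.0 CPM, and Pdia3 at 391 CPM in replicate 1 against 293 to 317 CPM. Replicate 1 also had the lowest share of reads outside annotated genes, 10.1% against 12.1% to 12.6%. Pituitary markers summed to 4.41 CPM in replicate 4 against 0.0614 to 0.322 CPM. In the 30 min intruder group, meningeal fibroblast markers summed to 93.7 CPM in replicate 5 against 49.0 to 61.0 CPM.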

How the results depend on the processing

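Of 63 named genes called between 30 and 120 min, 18 kept their call in all alternatives run, and 0 changed sign. The count of 341 was 628 with DESeq2, 222 with no filter on low counts, 172 in a fit of the 3 intruder groups, 98 in a fit of the compared groups only, 155 without 120 min replicates 3 and 6, 81 without 30 min replicates 1 and 2, 33 without 30 min replicates 3 to 5, and 239 with a replicate block, although replicate numbers did not pair these animals. DESeq2 and the fit of the compared groups only gave 79 and 48 genes for 60 vs 30 min (14), 161 and 19 for 120 vs 60 min (78; 30 with the replicate block), 143 and 10 in controls (31), and 12 and 1 for intruder minus control (0; 11 without 120 min replicates 3 and 6). Without those and the 2 control libraries with high thalamus sums, the counts were 12 in controls and 10 for intruder minus control. The region difference (0) was 35 with DESeq2 and 1 at a mean CPM of at least 1.

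Rapid factors called (11) were 6 without 30 min replicates 3 to 5, 7 in the fit of 3 groups and 6 in that of the compared groups; other rapid genes (5) were 3 without 30 min replicates 3 to 5 and 3 in the compared groups. Endoplasmic reticulum chaperones (8) were 13 with DESeq2, 2 in the fit of 3 groups and 0 in the compared groups, without 120 min replicates 3 and 6, and without either index set of the 30 min libraries. Heat shock genes (3) were 10, 1 and 0 under the same settings, and 5 at a mean CPM of at least 1. Endothelial markers (8) were 5 and 3, and mural markers (4) 1 and 1, without 30 min replicates 1 and 2 or 3 to 5; mural markers were 2 without 120 min replicates 3 and 6 and 2 with the replicate block. The causes were not tested. As mean log2(CPM + 1), the endothelial and mural differences were -0.58 and -0.635 and missed the threshold after adjustment.

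Without 1 library at a time, the counts ranged from 162 to 475 (120 vs 30 min), 8 to 16 (60 vs 30 min), 31 to 124 (120 vs 60 min), 10 to 41 (controls), 0 to 3 (intruder minus control) and 0 to 1 (regions). The list counts ranged from 8 to 11 (rapid factors), 5 to 6 (other rapid genes), 1 to 13 (endoplasmic reticulum), 1 to 11 (heat shock), 7 to 8 (endothelial) and 3 to 5 (mural). The marker sum differences ranged from -76.9 to -62.6 CPM (endothelial), -56.4 to -49.7 CPM (mural) and 61.9 to 136 CPM (thalamus).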
